A study of Mus musculus with 8 samples.

Results

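The 9 genes described here, Acta2, Actg2, Tagln, Cnn1, Myh11, Myl9, Mylk, Lmod1 and Synpo2, encode parts of the contractile apparatus of smooth muscle and of myofibroblasts, the contractile form of fibroblasts. They were chosen by symbol from a fixed list, and all 9 were found among the 52636 genes counted in each sample. The samples are RNA-seq libraries of pleural malignant mesothelioma, a cancer that starts in the membrane around the lungs, from conditional mouse models. The triple knockout group (6 samples) is labelled with loss of Nf2, Cdkn2a and Bap1, and the double knockout group (2 samples) with loss of Nf2 and Cdkn2a, so both groups are labelled as lacking Nf2 and Cdkn2a and the comparison is about Bap1. No samples with intact Nf2 and Cdkn2a were analysed here. The labels give neither strain nor age, nor the Cre driver, nor how many mice or cultures the samples stand for, and a protocol describes cells kept in culture medium.

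Smooth muscle contracts when calcium and calmodulin activate myosin light chain kinase, which phosphorylates the regulatory light chain of myosin and lets smooth muscle myosin pull on actin filaments. Most genes of this apparatus are switched on by serum response factor (Srf), which binds a short DNA element called the CArG box together with myocardin (Myocd) or with the related factors Mrtfa and Mrtfb. In tumours and scars, Acta2 and Tagln are the usual markers of myofibroblasts, and they are also made by vascular mural cells and by immature skeletal muscle cells. Srf and Mrtf factors respond to actin assembly in many cell types, so single genes of the set are not specific to smooth muscle.

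The start regions of the members are shown because the CArG box is the best known control element of smooth muscle genes. RefSeq start windows on build GRCm38.p6 were at hand for 6 of the 9 genes (not for Actg2, Tagln and Myh11), and the 250 bases before the start were searched on both strands. Capitals mark CArG boxes, which are 10 letters long and hold only A and T in their inner 6 letters, CArG boxes with 1 G or C among these inner letters, and MCAT elements (GGAATG or CATTCC), the letters read by TEAD factors of the Hippo pathway. No marked elements overlapped each other. The Mylk window lies inside the annotated gene body. The windows of Acta2 (chr19:34255374-34255623, minus strand), Myl9 (chr2:156775214-156775463, plus strand) and Mylk (chr16:34784700-34784949, plus strand) are printed 5′ to 3′.
Acta2: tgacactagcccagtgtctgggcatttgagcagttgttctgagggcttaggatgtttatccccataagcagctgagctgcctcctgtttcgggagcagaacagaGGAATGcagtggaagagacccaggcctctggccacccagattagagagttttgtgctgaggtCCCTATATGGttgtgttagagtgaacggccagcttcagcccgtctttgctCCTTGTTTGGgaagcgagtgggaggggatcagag
Myl9: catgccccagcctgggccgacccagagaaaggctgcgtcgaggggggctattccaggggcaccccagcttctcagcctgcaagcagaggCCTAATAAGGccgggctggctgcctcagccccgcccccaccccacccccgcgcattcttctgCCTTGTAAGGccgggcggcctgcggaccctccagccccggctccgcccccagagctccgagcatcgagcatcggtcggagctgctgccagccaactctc
Mylk: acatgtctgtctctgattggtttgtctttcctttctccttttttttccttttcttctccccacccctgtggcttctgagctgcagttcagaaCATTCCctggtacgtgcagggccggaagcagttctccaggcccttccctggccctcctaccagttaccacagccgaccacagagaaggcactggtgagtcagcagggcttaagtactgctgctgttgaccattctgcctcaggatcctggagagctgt
Acta2 held 2 CArG boxes with 1 G or C, at -84 to -75 and -34 to -25 from the start, and an MCAT element at -146 to -141. Myl9 held a full CArG box at -161 to -152 and another with 1 G or C at -99 to -90. Mylk and Lmod1 held an MCAT element each and no CArG box of either form, and the windows of Cnn1 and Synpo2 held none of these letters. Of 32851 RefSeq windows of the same length, 1.47% held a full CArG box, 7.24% one with 1 G or C, and 12.6% an MCAT element. These are matches of letters, and binding was not measured.

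Libraries were deep in both groups, with 28326756 to 30232440 counts in the triple samples and 26847202 to 32082535 in the double samples. Bap1 stood at 43.1 to 72.1 CPM, reads of a gene relative to the scaled library size, in the triple samples and at 106 and 71.2 CPM in double samples 1 and 2 (log2 fold change -0.60 ± 0.22, SE, edgeR adjusted p = 0.122). Nf2, which both groups are labelled as lacking, differed by as much, at 62.7 to 100 CPM in the triple samples and 165 and 109 CPM in the double samples (-0.64 ± 0.22, edgeR adjusted p = 0.103). Cdkn2a was counted in all samples, at 4.05 to 8.76 CPM in the triple and 1.54 and 5.16 CPM in the double samples. Whole-gene counts therefore do not check the labels. Double sample 1 stood apart. Mitochondrial genes took 1.17% to 2.33% of counts in the triple samples, 4.04% in double sample 1 and 2.01% in double sample 2. Scaling factors were 0.994 to 1.10 in the triple samples and 0.771 in double sample 1, and the levels of double sample 1 correlated with those of the triple samples at r = 0.804 to 0.878 across genes, against 0.903 to 0.93 for double sample 2. Striated muscle transcripts were far higher in it as well: 20 listed genes of skeletal and cardiac muscle summed to 117 to 8374 CPM in the triple samples, 67460 CPM in double sample 1 and 4972 CPM in double sample 2. These are bulk samples, so fewer cells of a type and less RNA per cell cannot be told apart.

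Levels per exon length put 3 genes far above the rest. In the triple samples Acta2 averaged 123 ± 102 CPM per kb, Tagln 118 ± 60.0 and Myl9 57.05 ± 29.01 (SD, n = 6). The other 6 genes averaged 3.78 CPM per kb (Synpo2) to 0.536 CPM per kb (Lmod1). In that order Synpo2, Cnn1, Mylk, Actg2 and Myh11 followed each other without differing by more than the larger SD of each neighbouring pair, as did Acta2 and Tagln. In the double samples Acta2 averaged 633 CPM per kb, against 72.2 for Tagln and 63.1 for Myl9. Exon length here joins all annotated exons of a gene, which lowers the value of long genes with many isoforms such as Mylk and Synpo2.

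The label was checked against the most specific members. Myh11, the smooth muscle myosin heavy chain, was low, at 4.64 to 11.7 CPM in the triple samples and 13.7 and 2.49 CPM in the double samples. Myocd had 2 to 11 reads in a triple sample and 9 and 1 reads in double samples 1 and 2. Srf was present in every sample, at 69.7 to 97.6 CPM in the triple and 102 and 94.7 CPM in the double samples. High Acta2 and Tagln therefore stood beside near-absent Myocd and little Myh11 in all 8 samples, and the set is treated here as a gene list, not as a measure of smooth muscle cells.

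**Figure D1:**
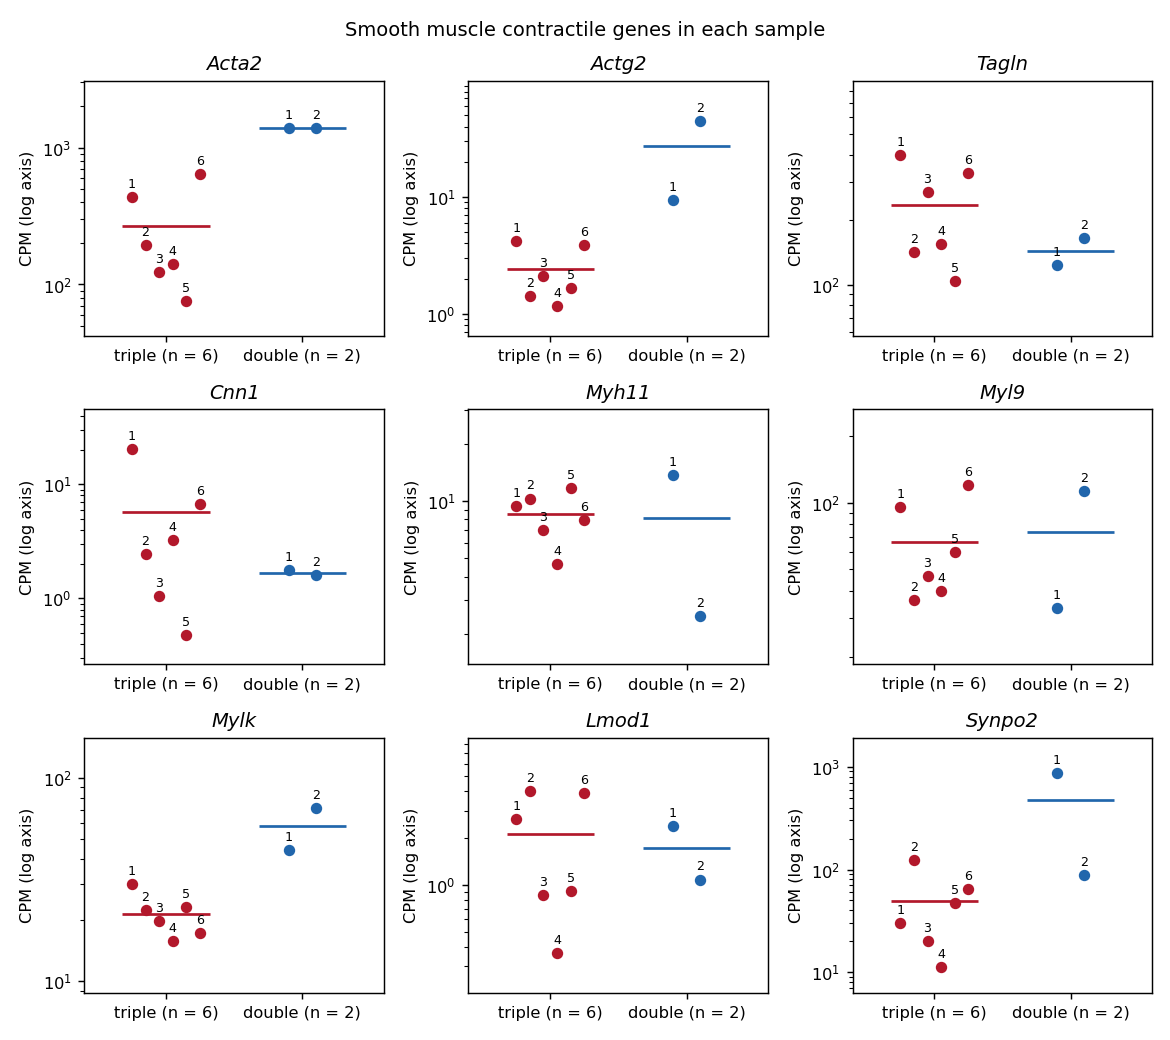
Level of each gene (CPM, log axis) in the 6 triple knockout samples and the 2 double knockout samples. Numbers are sample numbers and lines are group means. Acta2, Actg2 and Mylk are the genes whose groups do not overlap, with every triple sample below both double samples.

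Of the 9 genes, all of which passed the filter on low counts, 0 rose and 2 fell in the triple samples, Actg2 and Mylk. At an unadjusted p under 0.05 there were 4, with Acta2 and Synpo2 in addition, all lower, beside 27.9% of all genes tested. DESeq2 called these 4, and it called 19.1% of all genes tested. Over all 17709 genes tested, edgeR's quasi-likelihood test called 8.35% of genes, 2.94% being higher and 5.41% lower. The members split in sign, with 4 positive and 5 negative log2 fold changes, and their median was -0.14, against 0.02 over all genes tested. Groups did not overlap for 3 members, each lower in the triple samples. Over all genes tested, 24.1% showed no overlap and 11.4% were below both double samples.

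The 2 smooth muscle actins form the thin filament. Acta2, the vascular and myofibroblast isoform, stood at 437, 194, 124, 140, 75.7 and 644 CPM in triple samples 1 to 6, against 1384 and 1395 CPM in double samples 1 and 2. The double samples were nearly equal and above all triple samples, which differed among themselves by 8.51-fold. Acta2 averaged 269 ± 223 CPM in the triple samples (SD, n = 6) and 1389 ± 7.47 CPM in the double samples (SD, n = 2). The near-equality of the double samples rests on their scaling factors, 0.771 and 1.03. Their raw Acta2 counts were 34193 of 32082535 and 38630 of 26847202. The log2 fold change of Acta2 was -2.37 ± 0.68 (SE), and it did not pass the test over all genes (edgeR adjusted p = 0.0660). It was -2.38 without double sample 1 and -2.35 without double sample 2, and it was called without triple sample 6, at -2.88 (adjusted p = 0.0362). An exact permutation test over the 28 ways to split the samples gave p = 0.0357 for Acta2, 2-sided and unadjusted, the smallest it can give. Actg2 and Mylk, whose groups do not overlap either, had the same p, and Synpo2 had an exact permutation p = 0.0714.

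Actg2, the actin of gut and bladder muscle, stood at 4.22, 1.43, 2.12, 1.16, 1.65 and 3.87 CPM in triple samples 1 to 6, against 9.47 and 44.8 CPM in the double samples. All triple samples lay below both double samples, and double sample 2 was 4.73-fold above double sample 1. Actg2 fell by 3.49 ± 0.61 on the log2 scale, 11.3-fold (edgeR adjusted p = 0.0147). Without double sample 2 the log2 fold change was -1.96 and the call was lost (adjusted p = 0.0548), and without double sample 1 it was -4.23 (adjusted p = 0.0167). The call was also lost with sample weights in limma-voom (adjusted p = 0.126). Actg2 levels were in all samples a small fraction of Acta2 levels, at 0.843% to 3.01% of the pair per exon length in the triple samples and 0.958% and 4.33% in the double samples. A difference in the log2 ratio of the pair was not shown (triple minus double -0.49, exact permutation p = 0.571, adjusted over 3 ratios p = 0.857).

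Mylk, which encodes the myosin light chain kinase, varied least of the set among the triple samples. It stood at 30.04, 22.4, 19.8, 15.8, 23.2 and 17.3 CPM in triple samples 1 to 6, against 44.0 and 71.6 CPM in double samples 1 and 2. Every triple sample lay below both double samples, with a 1.90-fold range among the triple samples. Mylk fell by 1.43 ± 0.27 on the log2 scale, 2.70-fold (edgeR adjusted p = 0.0194). The call held on leaving out any single sample, with adjusted p from 0.0226 to 0.0434 and log2 fold changes from -1.75 to -1.02. It was lost with sample weights in limma-voom (adjusted p = 0.224) and with library size as the only scaling (edgeR adjusted p = 0.0538). Counts are summed over the whole gene, so the long, short and telokin forms of Mylk were not separated.

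Within sets of description codes, which the labels do not explain, effect sizes are given without calls. The code SN930 marks triple samples 4, 5 and 6 and double sample 1, and other codes mark triple samples 1, 2 and 3 and double sample 2. In the SN930 set the log2 fold change was -2.07 for Actg2, -1.21 for Mylk, -2.25 for Acta2 and -4.39 for Synpo2. In the other set it was -4.13 for Actg2, -1.59 for Mylk, -2.49 for Acta2 and -0.60 for Synpo2. Each set holds 1 double sample, so the code and the double sample cannot be told apart there.

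The remaining myosin genes had double samples that disagreed with each other. Myh11 had 9.43, 10.3, 7.06, 4.64, 11.7 and 7.97 CPM in triple samples 1 to 6, against 13.7 and 2.49 CPM in double samples 1 and 2. The double samples were the highest and the lowest of all 8, and the log2 fold change was 0.07 ± 0.58 (edgeR adjusted p = 0.947). It was 1.76 without double sample 1 and -0.67 without double sample 2. Myl9, the regulatory light chain that Mylk phosphorylates, had 95.1, 36.4, 46.8, 39.9, 60.0 and 120 CPM in triple samples 1 to 6, against 33.5 and 113 CPM in the double samples. Here too the double samples lay apart from each other, 1 below all triple samples and 1 near the top. Its log2 fold change was -0.14 ± 0.56 (edgeR adjusted p = 0.888).

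Myh11 was a minor part of the myosin heavy chains of smooth muscle and non-muscle cells. Per exon length it made up 0.734%, 1.34%, 1.18%, 0.428%, 1.25% and 0.560% of Myh9, Myh10, Myh11 and Myh14 together in triple samples 1 to 6, against 2.22% and 0.241% in the double samples. The log2 ratio to the other myosins differed by 0.19 between the groups, within the spread of either group (exact permutation p = 0.857, adjusted over 3 ratios p = 0.857). Of the 12 non-muscle actomyosin genes, 0 rose and 1 fell, which is 8.33% called beside 8.35% of all genes tested. Myl12a, a light chain of non-muscle myosin, fell by 1.25 ± 0.32 (edgeR adjusted p = 0.0489). The median of these genes was 0.26.

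Other isoforms made up most of the actin in every sample. Acta2 and Actg2 together made up 11.8%, 2.33%, 3.88%, 5.01%, 1.30% and 9.39% of the 6 actins per exon length in triple samples 1 to 6, against 2.72% and 24.2% in double samples 1 and 2. In double sample 1 the skeletal actin Acta1 took 93.0%, so nearly the same scaled Acta2 level as in double sample 2 was a small share there. Cytoplasmic Actb was the largest share in triple samples 1, 3, 4, 5 and 6, at 46.7% to 76.7%, and Acta1 was the largest in triple sample 2, at 68.2%. The log2 ratio of the smooth muscle actins to the other actins differed by -1.04 between the groups (exact permutation p = 0.429, adjusted over 3 ratios p = 0.857), and by 0.71 without double sample 2.

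**Figure D2:**
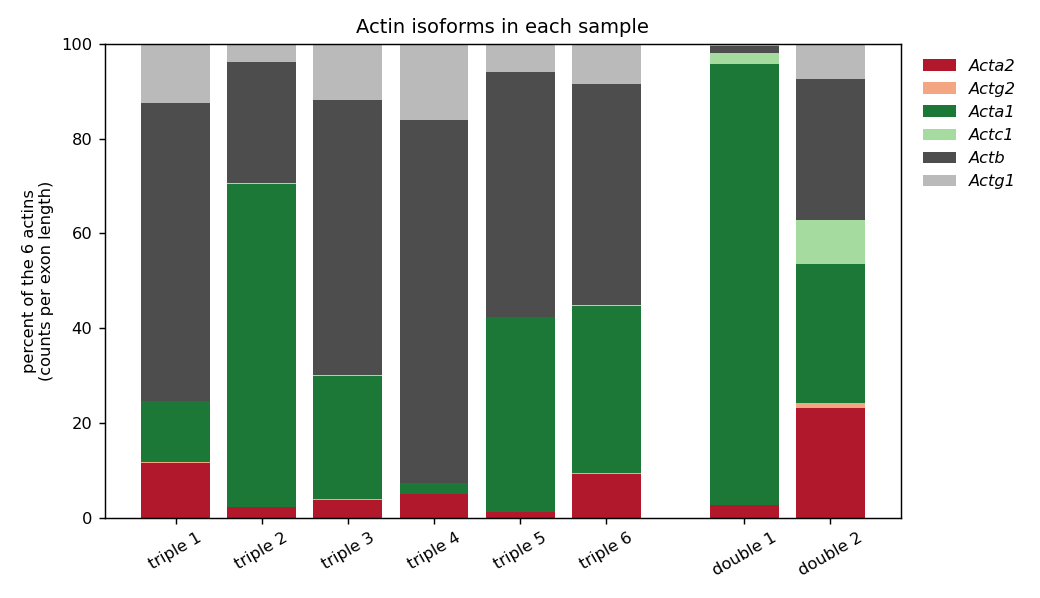
Share of each of the 6 actins in the summed actin counts per exon length (percent), for triple samples 1 to 6 and double samples 1 and 2. Acta2 takes 23.2% in double sample 2 and 2.69% in double sample 1, where Acta1 takes 93.0%.

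Among the genes of actin-binding proteins, Tagln and Cnn1 had positive log2 fold changes that did not pass the test. Tagln, which encodes transgelin, a calponin-family protein that bundles actin, had 403, 141, 269, 155, 104 and 332 CPM in triple samples 1 to 6, against 123 and 164 CPM in the double samples. Both double samples lay inside the range of the triple samples. The log2 fold change was 0.70 ± 0.52 (edgeR adjusted p = 0.399). Cnn1, or calponin 1, which restrains actomyosin, had 20.6, 2.47, 1.06, 3.25, 0.475 and 6.77 CPM in triple samples 1 to 6, against 1.78 and 1.59 CPM in the double samples. Triple samples 1 and 6 were high and triple samples 3 and 5 lay below both double samples. Its log2 fold change was 1.77 ± 1.32 (edgeR adjusted p = 0.406), and 0.73 without triple sample 1. Tagln overlaps 2 genes on the opposite strand, and whether counting used strand is not given in the sources used here. These 2 genes had 70 to 1386 counts in a sample, against 3031 to 12130 for Tagln.

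Lmod1, leiomodin 1, which starts new actin filaments in smooth muscle, was the scarcest member. It had 2.66, 3.99, 0.867, 0.365, 0.919 and 3.90 CPM in triple samples 1 to 6, against 2.39 and 1.08 CPM in the double samples. These values rest on 11 to 126 reads a sample, and the groups overlapped (log2 fold change 0.29 ± 0.89, edgeR adjusted p = 0.859).

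Synpo2, synaptopodin 2, bundles actin in smooth muscle and at the Z-disc of striated muscle. It had 29.8, 124, 20.3, 11.3, 46.7 and 64.6 CPM in triple samples 1 to 6, against 866 and 87.9 CPM in double samples 1 and 2. Double sample 1 was far above all others, and double sample 2 lay below triple sample 2. The log2 fold change was -3.27 ± 0.87 (edgeR adjusted p = 0.0530). It was -0.83 without double sample 1 and -4.12 without double sample 2. Of the fits that leave out a triple sample, only that without triple sample 2 called Synpo2, at -3.79 (edgeR adjusted p = 0.0444).

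**Figure D3:**
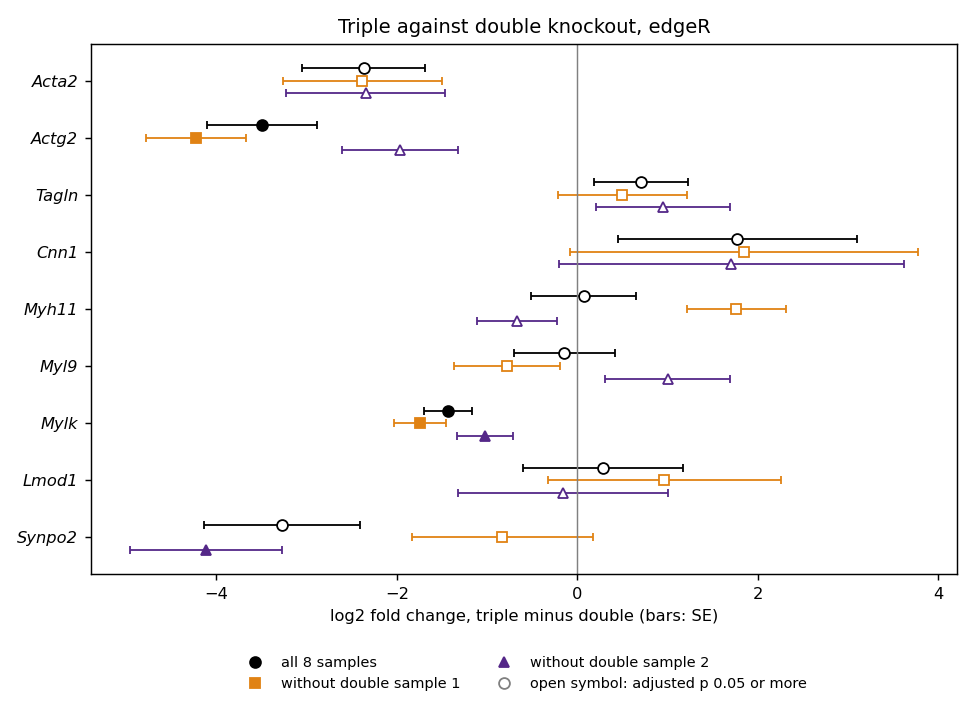
Log2 fold change of each gene, triple minus double, with its SE, over all 8 samples and without double sample 1 or 2. Filled symbols have an adjusted p under 0.05 over all genes tested. Acta2 keeps its value in all 3 fits, while Myh11, Myl9 and Lmod1 change sign with the double sample that is left in.

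Synpo2 followed the striated muscle transcripts of each sample. Over the 8 samples its log2 level correlated with the log2 sum of 20 striated muscle genes, a list that does not hold Synpo2, at r = 0.951 and rho = 0.976, and over the 6 triple samples at r = 0.92 and rho = 0.943. Without double sample 1 and triple sample 4, the farthest from the median sum, r was 0.875 over 6 samples. The relation was looked at for all 9 members. For the other 8, r over the 8 samples ran from -0.376 for Tagln to 0.591 for Lmod1, and it was 0.523 for Acta2, 0.445 for Actg2 and 0.52 for Mylk. Over the 6 triple samples alone, Myh11 had r = 0.787 and rho = 0.6, and Lmod1 had r = 0.713 and rho = 0.829. The sum weighs abundant genes most, and Acta1 alone had 33430 CPM in double sample 1. Genes of the list differed in double sample 2. Acta1 lay within the triple range there, at 1234 CPM, while Myh3 and Actc1 lay above all triple samples in both double samples. The points share library scaling, and the part of striated muscle in the differences of Synpo2 and the other members was not tested.

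**Figure D4:**
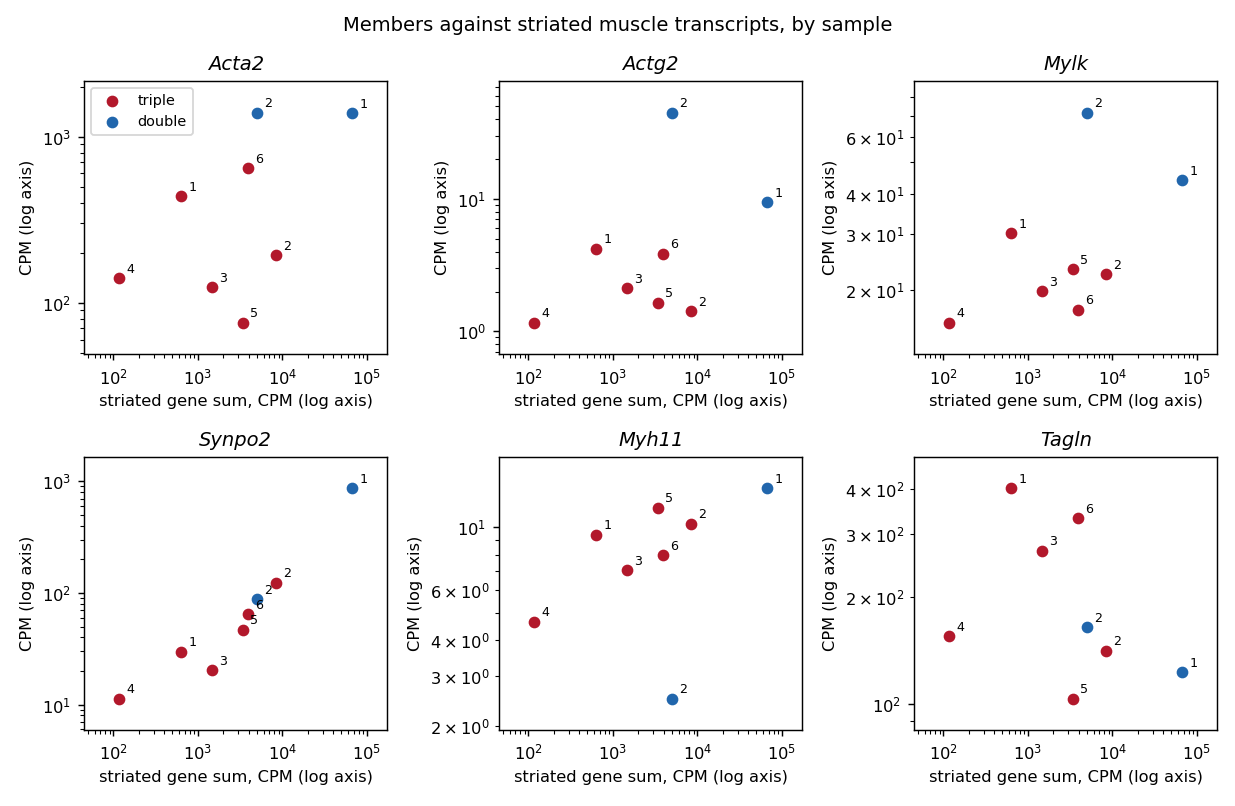
Level of 6 members (CPM) against the summed CPM of 20 striated muscle genes in each sample, both on log axes. Synpo2 is higher where the striated sum is higher, in both groups. Acta2 is nearly equal after scaling in the 2 double samples, which differ widely in the striated sum. Acta1 is the largest part of that sum in every sample.

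Of the 20 genes of the striated list, 0 rose, 10 fell and 10 did not pass, with a median log2 fold change of -4.18. That is 50% called, beside 8.35% of all genes tested. Fewer were called without double sample 1, in this list and over all genes. On the log2 scale, embryonic myosin Myh3 fell by 7.97 ± 1.03 and cardiac actin Actc1 fell by 7.51 ± 1.09. The slow troponin gene Tnnc1 fell by 6.71 ± 0.90, and the embryonic light chain gene Myl4 fell by 6.36 ± 0.91. Actc1 stood at 0.0663 to 10.7 CPM in the triple samples and at 924 and 414 CPM in the double samples. Acta1 had a log2 fold change of -3.63 and did not pass (edgeR adjusted p = 0.116).

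Of 25 other contractile and associated genes of smooth muscle, 0 rose, 4 fell and 21 did not pass, which is 16% called beside 8.35% of all genes tested, with a median of -0.36. Pgm5, a phosphoglucomutase-like protein of adhesions, fell by 4.37 ± 0.79, and the chaperone gene Hspb8 fell by 2.83 ± 0.62. Nexn, an actin-binding Z-disc protein, fell by 2.69 ± 0.61. These 3 genes are also made in striated muscle. Double sample 1 held most of the signal for Hspb8, which stood at 62.7 to 143 CPM in the triple samples, 1505 CPM in double sample 1 and 137 CPM in double sample 2. The calls in this list were not kept without double sample 1, where far fewer of all genes were called. Without double sample 2 more genes were called, in this list and over all genes tested. Leaving out a single triple sample left 1 or 2 calls in this list, beside 3.61% to 5.3% of all genes tested. Smtn, smoothelin, was at 0.59 and Cald1, caldesmon, at 0.69, and neither passed (edgeR adjusted p = 0.211 and 0.290).

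Among 25 genes of contraction signalling, of which 23 were tested, 0 rose and 2 fell, with a median of -0.003. That is 8.7% called, beside 8.35% of all genes tested. Casq2, the calcium buffer of the sarcoplasmic reticulum, fell by 6.04 ± 0.64, and the calcium pump gene Atp2a2 fell by 3.12 ± 0.67. Casq2 stood at 2.25 to 10.3 CPM in the triple samples and 723 and 124 CPM in the double samples. Atp2a2 stood at 315 to 464 CPM in the triple samples, against 6300 CPM in double sample 1 and 376 CPM, within the triple range, in double sample 2. Both genes were highest in double sample 1, as was the striated sum, and the part of striated muscle in their falls was not tested. The regulators of the set did not pass: Srf had a log2 fold change of -0.27 (edgeR adjusted p = 0.329), Mrtfa 1.08 (0.120) and Mrtfb 0.32 (0.261). Mrtfa was at 66.2 to 148 CPM in the triple samples, all above the 36.4 and 60.9 CPM of the double samples.

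Markers of other cells that make Acta2 and Tagln were set beside the members. Of 15 mural cell and pericyte markers, which wrap vessels, 0 rose and 1 fell, which is 6.67% called beside 8.35% of all genes tested. Their median was 0.44, with 9 positive against 6 negative log2 fold changes. Notch3, a receptor of mural cells, fell by 1.28 ± 0.33 (edgeR adjusted p = 0.0487). Notch3 stood at 37.3 to 86.6 CPM in the triple samples and at 106 and 164 CPM in the double samples. The summed level of the 15 markers was 457 to 891 CPM in the triple samples and 935 and 849 CPM in the double samples, and none was at 0 in any sample. Mustn1 alone held 283 CPM of the sum in double sample 1, against 31.9 CPM in double sample 2 and 2.35 to 124 CPM in the triple samples. The defining pericyte gene Rgs5 had 49.9 to 101 CPM in the triple samples, against 94.3 and 22.6 CPM in the double samples.

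Of 18 fibroblast and myofibroblast markers, 2 rose, 0 fell and 16 did not pass, which is 11.1% called beside 8.35% of all genes tested. Their median was 1.11, and their summed level was 29590 to 60990 CPM in the triple samples and 17310 and 21380 CPM in the double samples. Pdgfra, the receptor that marks fibroblasts, rose by 1.83 ± 0.41, and Postn, a matrix protein of activated fibroblasts, by 1.58 ± 0.41. No gene of the list was called without triple sample 1, 4 or 5, where 3.61%, 4.53% and 4.62% of all genes tested were called. Nor was any called with the description code as a term (SN930 against all other codes), where 5.43% of all genes were. The calls were not kept without double sample 1 either, where far fewer of all genes were called. The part of these cells in the members' differences was not tested.

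Endothelial, mesothelial and leukocyte markers gave 1, 1 and 2 calls. That is 6.67%, 7.69% and 14.3% of the genes tested in each list, beside 8.35% of all genes tested. Of 15 endothelial markers only Tek was called, and it fell by 1.83 ± 0.48. The list summed to 311 to 696 CPM in the triple samples and 605 and 473 CPM in the double samples. Of 13 tested mesothelial markers only Tm4sf1 rose, by 2.18 ± 0.45, and the list of 14 summed to 407 to 1583 CPM in the triple and 385 and 1520 CPM in the double samples. Single genes and samples weigh on that sum. Krt8 alone held 799 CPM in double sample 2, against 16.5 CPM in double sample 1 and 1.23 to 179 CPM in the triple samples. Upk3b held 173 CPM in triple sample 3 and 0.0334 to 0.365 CPM in the other triple samples. Cd68 and Itgam of the 14 leukocyte markers rose, by 1.26 ± 0.27 and 1.89 ± 0.46, and that list summed to 2123 to 3662 CPM in the triple and 1166 and 2876 CPM in the double samples. Calls in these 3 lists, and in the mural and non-muscle actomyosin lists, were not kept without double sample 1, where far fewer of all genes were called. The endothelial and non-muscle actomyosin lists had no call either on leaving out any triple sample, nor the mural list on leaving out any but triple sample 5. The leukocyte list had none without triple sample 1, 2, 4 or 6. On leaving out a triple sample, 3.61% to 5.3% of all genes tested were called.

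The same few triple samples were high for most members. Triple sample 6 was among the 2 highest of the 6 for 7 of the 9 members, and triple sample 1 for 6 of them. Triple sample 4 was among the 2 lowest for 6 members and triple sample 3 for 5. The summed level of the 9 genes was 1031, 536, 491, 372, 324 and 1200 CPM in triple samples 1 to 6, against 2478 and 1882 CPM in the double samples. Acta2 alone made up 23.4% to 53.7% of that sum in the triple samples and 55.9% and 74.1% in the double samples. Tagln made up 26.4% to 54.8% in the triple samples, against 4.95% and 8.73% in the double samples. The range among the triple samples was 43.3-fold for Cnn1 and about 11-fold for Lmod1 and Synpo2, while Myh11 and Mylk had the narrowest, at 2.53-fold and 1.90-fold.

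By position the members lie on 7 chromosomes (GRCm38). Tagln (45929619 to 45936058) and Cnn1 (22099216 to 22109630) share chromosome 9. Myh11 (14194527 to 14291408) and Mylk (34745210 to 35002420) share chromosome 16. Acta2 spans 34241090 to 34255336 on chromosome 19 and Actg2 83512905 to 83536265 on chromosome 6. Reads of related genes can be confused, which was gauged from annotated transcripts: of all stretches of 50 bases in a member's transcripts, 0% (Actg2, Tagln, Cnn1, Myl9 and Lmod1) to 0.34% (Myh11) also occurred in another gene, with 0.326% for Acta2.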

How the data were processed

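RNA-seq libraries of 8 samples were used. Raw read counts per gene, as the authors deposited them in a table for each sample, were the starting point. HTSeq and DESeq2 and the builds mm10 and GRCm38 are named in the submitters' processing notes, while an aligner, annotation release or strand setting is not given in the sources used here. Groups come from the genotype label. Replicate numbers follow accession order and pair nothing. Nothing says the samples came from separate mice, so p-values reflect spread that may be technical. All pairs of samples differed by more than sampling noise (lowest median chi-square per gene 8.33).

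Symbols were found for 52403 of 52636 genes, and 49870 matched GENCODE M21 in position and strand, which also gave exon lengths. After filterByExpr and TMM scaling, triple minus double was tested by the quasi-likelihood test of edgeR 4.0.16 (R 4.3.3), with Benjamini-Hochberg adjustment over the 17709 genes tested and calls under 0.05. CPM use TMM-scaled library sizes. Standard errors come from the test statistic. Ratios within gene families used counts plus 0.5 per exon length and exact 2-sided permutation tests. Alternatives were DESeq2 1.42.0, limma-voom (limma 3.58.1) with and without sample weights, other scalings and filters, a robust fit, the description code, and leaving out each sample. The code was used as SN930 against all other codes, which differ from sample to sample and were not adjusted for singly.

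The members, lists and rules were chosen with earlier results of these data known. The text names all 9 members and, from each other list, up to 4 called genes of smallest p, of which 1 is not reported here. Likeness is the correlation of log2 CPM (prior count 2) with that of a member or with the mean of the members' standardised log2 CPM. It was taken over genes whose CPM averaged 1 or more. Acta1, Srf, Mrtfa, Mrtfb, Myocd, Rgs5, Smtn, Cald1 and the other actins and myosins were named for their known roles, after their values were seen.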

Additional observations from a re-analysis of the deposited data

Results flagged for a closer look

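Cnn1 in triple sample 1, at 20.6 CPM, stood apart from the other 5 triple samples, which had 0.475 to 6.77 CPM. Its gap to the next sample was 0.687 of the group's range, above Dixon's 95% critical value for 6 samples. The gap was taken on CPM without a log, a scale on which high values lie farther apart. It was the only such value among 12 measures examined (the 9 members and 3 isoform shares). Chance gives about 1 in 20 for each measure taken alone, so 1 such value among 12 can arise by chance. Tagln was also highest in that sample, at 403 CPM, and the cause was not tested.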

How the results depend on the processing

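Of 180 member values under alternatives, 157 kept their direction and side of the threshold, 8 lost and 6 gained a call, and 9 changed sign. The causes were not tested, but each code set and each fit without a double sample rests on 1 double sample, assumed to vary like the triple samples. DESeq2 called 4 members, all lower, with log2 fold changes of -2.40 for Acta2 and -3.33 for Synpo2. Synpo2 was also called with no filter on low counts (-3.25). Sample weights left 0 members called (Actg2 -3.26, Mylk -1.43) and library size alone left 1, Actg2 (-3.43), with the Mylk call lost (-1.27), where the median of all genes was 0.21. Within codes, effect sizes are given without calls. Among SN930 samples Actg2 was at -2.07, Mylk -1.21, Myh11 -0.74, Myl9 1.15 and Lmod1 -0.45, and among the others Actg2 was at -4.13 and Mylk -1.59. Limma-voom put Lmod1 at -0.073. Over all genes DESeq2 called 1498 higher and 1882 lower, sample weights 7 and 92, and other codes 0 and 1. Library size alone gave 544 lower, the code as a term 593 lower, and SN930 samples 887 higher.

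Leaving out each sample gave log2 fold changes of -2.88 to -2.17 for Acta2, -4.23 to -1.96 for Actg2, 0.48 to 0.95 for Tagln, 0.73 to 2.02 for Cnn1, -0.67 to 1.76 for Myh11, -0.78 to 1.00 for Myl9, -1.75 to -1.02 for Mylk, -0.16 to 0.96 for Lmod1 and -4.12 to -0.83 for Synpo2. Without double sample 2, Myh11 was at -0.67, Myl9 at 1.00 and Lmod1 at -0.16, without triple sample 5 Myh11 was at -0.04, and without triple sample 6 Lmod1 was at -0.01. Acta2 was called without triple sample 6, at -2.88. Members called numbered 2 to 3, all lower, with 0 higher. Calls over all genes ran from 103 to 2592 higher and from 212 to 2987 lower. The log2 ratios ran from -1.42 to 1.81 for Myh11 among the myosins, from -2.80 to 0.71 for the smooth muscle actins among the actins and from -1.61 to 0.62 for Actg2 against Acta2, with the sign changed without double sample 2.

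In the other gene lists the calls were, on leaving out each sample, 0 to 15 other smooth muscle contractile, 1 to 8 contraction signalling, 0 to 7 non-muscle actomyosin, 3 to 14 striated muscle, 0 to 2 mural, 0 to 3 fibroblast, 0 to 3 endothelial, 0 to 2 mesothelial and 0 to 6 leukocyte. With DESeq2 the calls were 9 other smooth muscle contractile, 4 contraction signalling, 3 non-muscle actomyosin, 2 mural, 8 fibroblast, 2 mesothelial and 4 leukocyte. With limma-voom the calls were 2 other smooth muscle contractile, 1 contraction signalling, 0 non-muscle actomyosin, 0 mural and 0 endothelial. With sample weights in limma-voom the calls were 0 other smooth muscle contractile, 1 contraction signalling, 0 non-muscle actomyosin, 2 striated muscle, 0 mural, 0 fibroblast, 0 endothelial, 0 mesothelial and 0 leukocyte. With upper-quartile scaling the calls were 0 non-muscle actomyosin, 0 mural and 0 endothelial. With library size alone the calls were 2 other smooth muscle contractile, 0 non-muscle actomyosin, 0 mural, 0 endothelial and 1 leukocyte. With no filter on low counts the calls were 0 non-muscle actomyosin. With a robust fit the calls were 0 mural and 0 endothelial. With the description code as a term (SN930 against all other codes) the calls were 1 other smooth muscle contractile, 1 contraction signalling, 0 non-muscle actomyosin, 0 mural, 0 fibroblast, 0 endothelial and 1 leukocyte. Among SN930 samples alone the calls were 10 other smooth muscle contractile, 6 contraction signalling, 2 non-muscle actomyosin, 4 striated muscle, 0 mural, 1 fibroblast and 2 mesothelial. Among samples with other codes the calls were 0 other smooth muscle contractile, 0 contraction signalling, 0 non-muscle actomyosin, 1 striated muscle, 0 mural, 0 fibroblast, 0 endothelial, 0 mesothelial and 0 leukocyte. The share of all genes tested that was called moved as well, from 8.35% in the main fit. It was 19.1% with DESeq2, 6.04% with limma-voom and 0.559% with sample weights. With upper-quartile scaling it was 7.43%, with library size alone 5.47% and with no filter 4.63%. A robust fit called 8.11% and the code as a term 5.43%. Counts in a list are to be read beside these shares. No paired analysis was possible because the replicate numbers follow accession order.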

Other observations

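Members varied together only in part. Over the 8 samples, 8 of 36 pairs of members had a Pearson r of log2 levels above 0.5, 0 had one under -0.5, and the median was 0.28. The closest pairs were Actg2 with Mylk (r = 0.914), Acta2 with Actg2 (r = 0.863) and Tagln with Cnn1 (r = 0.757), and the lowest was Actg2 with Myh11 (r = -0.471). The points share library scaling and the 2 double samples.

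A score of the members was the mean of their log2 levels after each gene was brought to the same mean and spread. It weighs all members alike and does not follow their summed level. The score was 0.59 and 0.48 in triple samples 1 and 6, against 0.48 and 0.40 in double samples 1 and 2. Among 14613 other genes, the 5 closest to this score over the 8 samples were Pfkp (r = 0.952), Spty2d1 (0.935), Tbpl1 (0.935), Il1r1 (0.921) and Slc16a3 (0.915). Pfkp encodes a glycolytic phosphofructokinase, Il1r1 an interleukin 1 receptor and Slc16a3 a lactate transporter. For Acta2 they were Rnf20 (r = 0.958), 5430430B14Rik (0.945), Lrrfip1 (0.941), Egln3 (0.939) and Srpx2 (0.935). For Actg2 they were Csnk2a2 (r = 0.962), BC067074 (0.957), Plcxd2 (0.945), Clcn5 (0.945) and Gm40841 (0.944). With 8 samples and this many genes, correlations of this size are a description only.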
